A study of Homo sapiens with 8 samples.

Results

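The 2 colorectal cancer lines HCT116 and HT29 were compared with each other while a protein of the large ribosomal subunit was silenced in both. The comparison takes 6 of the 8 libraries of the series: HCT116 transfected with siRNA against RPL9, RPL17 or RPL27, and HT29 transfected with the same 3 siRNAs, each at 15 nM, with total RNA taken 48 h after transfection. Each siRNA gives a pair made of 1 HCT116 and 1 HT29 library, and the 2 libraries with negative control siRNA (NC) were not used in the main comparison. Genes were kept where their mean over the 6 libraries was at least 1 RPKM (reads per kilobase of gene, scaled to library size), which left 14217 of 19124 genes. Just inside that limit stood FYB (1.001 RPKM) and COL22A1 (1.002 RPKM), and just outside it TMEM52B (0.9997 RPKM) and ZNF793 (0.9994 RPKM). Both lines are established lines derived from human colorectal tumours and were grown in the same RPMI medium. No siRNA was repeated within a line, so the 3 pairs differ in siRNA as well as in sample. The p values rest on the spread between these pairs, with each gene's variance drawn towards a trend over all genes. They do not measure a spread between repeats of an siRNA.

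HCT116 and HT29 are widely used as contrasting models of colorectal cancer. HCT116 is known as a poorly differentiated, mismatch repair deficient line, while HT29 is a mismatch repair proficient line with a mutation of BRAF, and can be led towards enterocyte or mucus-producing cells. RPL9, RPL17 and RPL27 encode proteins of the large ribosomal subunit, and loss of such proteins is known to hold up the assembly of that subunit in the nucleolus. Ribosome assembly was not measured here.

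The 6 libraries had between 13.1% and 15.7% of genes listed at 0 and summed to 6.54 to 6.71 M RPKM (M, mega). Their medians over all listed genes were 31.7 to 34.8 RPKM. The HT29 NC library stood apart, with a median of 26.3 RPKM and a sum of 7.16 M RPKM, while the HCT116 NC library had 32.8 RPKM and 6.57 M RPKM. Values of the NC pair given below carry that difference between libraries, and its part in them was not tested. The read counts behind these values were not analysed here. Over the 12320 genes that averaged 5 RPKM or more, log2(RPKM + 1) values of libraries of the same line had a Pearson correlation of 0.976 to 0.984, and libraries of different lines one of 0.921 to 0.941. The epithelial markers EPCAM, CDH1, KRT8, KRT18 and KRT19 were read in every library, with sums of 29108 to 31241 RPKM in HCT116 and 40938 to 46793 RPKM in HT29. Not every colonic marker was high: CDX2, a transcription factor of intestinal identity, was read at 8.04 to 18.8 RPKM over the 6 libraries, CDH17, an intestinal cadherin, at 0.45 to 5.38 RPKM, and TFF3, a goblet cell peptide, at no more than 0.29 RPKM. The lines are called by their labels, and whether these low markers bear on the identity of the libraries labelled HT29 was not tested. Summed markers of other cell types were low or did not separate the lines: endothelium lay at 0.48 to 6.13 RPKM in HCT116 and 0.66 to 6.75 RPKM in HT29, and fibroblasts at 348 to 426 RPKM and 254 to 438 RPKM, nearly all of it COL1A1, with COL1A2, DCN and LUM under 1 RPKM in all 6 libraries. Of leukocyte markers PTPRC and TYROBP were under 1 RPKM in every library, CD14 was at no more than 1.17 RPKM, and CD3E was at 0 in 5 libraries and at 8.03 RPKM in the HT29 RPL27 library.

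The 3 silenced genes stood at like levels in both lines. RPL9 was read at 5560 RPKM (HCT116) and 5245 RPKM (HT29) under its own siRNA, against 17546 to 18823 RPKM under the other two. RPL17 was at 10004 and 8240 RPKM under its siRNA, and RPL27 at 2045 and 2214 RPKM. The fitted line differences (HCT116 minus HT29) were 0.09 for RPL9 (log2 scale; SE 0.03; adjusted p = 0.087), 0.12 for RPL17 (SE 0.06; adjusted p = 0.18) and -0.10 for RPL27 (SE 0.05; adjusted p = 0.17) in limma, and none passed the threshold. The RPL17 difference passed it without the HCT116 RPL9 library (0.20; adjusted p = 0.030) or without the HT29 RPL9 library (adjusted p = 0.029).

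The lines differed at a large number of genes, and the big differences ran almost entirely in 1 direction. HT29 held the secretory gene AGR2, the villus protein gene VIL1 and the keratin gene KRT20 at high levels where HCT116 had little or none, while other genes of the differentiated colon, such as CDX2, were low in both lines. Genes higher in HCT116 seldom differed by as much, and how their number compared with the lower ones moved with the settings. limma, fitted on log2(RPKM + 1) with terms for line and siRNA, called 3308 of 14217 genes (23.3%) at a Benjamini-Hochberg adjusted p under 0.05. Of these 1624 were higher in HCT116 (11.4%) and 1684 lower (11.8%). Each called gene had the same sign in all 3 pairs, but the call itself requires this here, so it is no separate evidence. At an unadjusted p under 0.05 there were 5392 genes. The median line difference over all tested genes was 0.04, and the median size of the difference 0.27. With each library freed of its trend with transcript length, 2415 genes were higher and 1433 lower, so that 62.8% of the calls were higher in HCT116 against 49.1% without that step, and the median over all genes went from 0.04 to 0.11. Other settings lowered that share: 545 were higher and 998 lower with no term for the siRNA, 295 and 725 without the trend option, and 103 and 415 with the NC pair added. Calls became fewer with 5 libraries: 996 genes were called higher without the HCT116 RPL9 library, 490 higher and 889 lower without HCT116 RPL17, 547 and 887 without HT29 RPL17, 674 and 1085 without HCT116 RPL27, and 751 and 1092 without HT29 RPL27.

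The asymmetry lay in the size classes. A difference of at least 1 on the log2 scale was called for 214 genes higher in HCT116 (1.51%) and 691 lower (4.86%). Y-linked genes and XIST, 9 of which were tested, are counted here and are left out of what follows, which leaves 207 higher. At 3 or more there were 5 genes higher in HCT116 and 221 lower. At 5 or more there were 0 and 67. The count of 5 was the least steady of these: it came to 38 with a pseudocount of 0.1 and to 0 with a pseudocount of 5, and to 11 without either RPL17 siRNA library and 8 without the HT29 RPL27 library. In the same 2 alternatives the 221 genes came to 319 and 104, so HT29-high genes were more numerous in each.

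**Figure D1:**
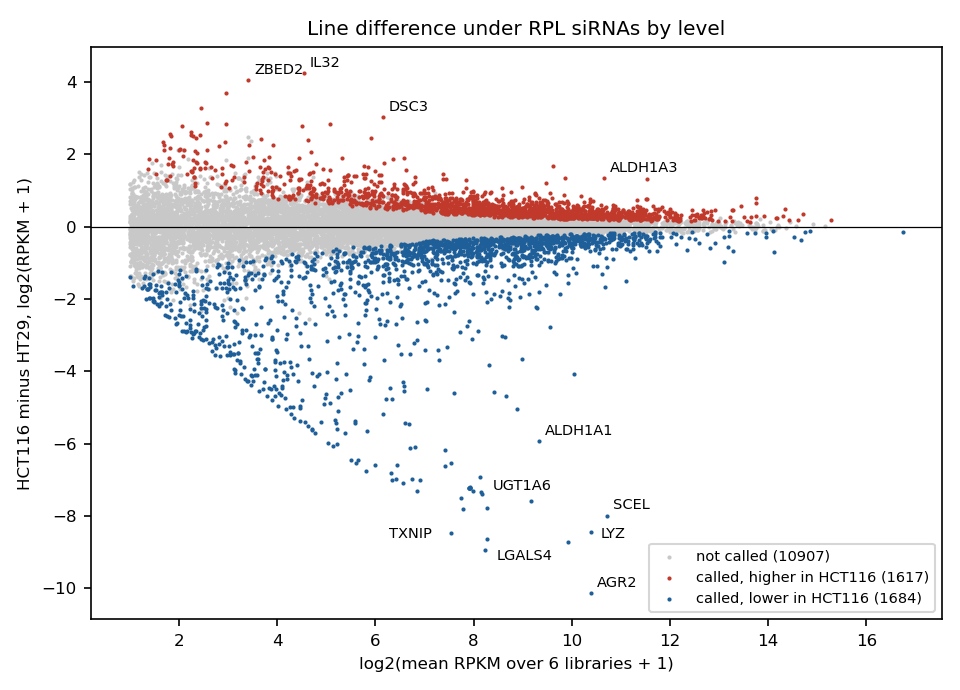
Line difference (HCT116 minus HT29, log2(RPKM + 1), vertical axis) against mean level over the 6 libraries (log2 scale, horizontal axis), 1 point per tested gene, with Y-linked genes and XIST left out. Red points are called higher in HCT116 (1617) and blue points lower (1684); blue points reach -10.13 at AGR2, while red points go no higher than 4.25 at IL32.

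Most of the better-read genes among the 221 had a few percent or less of their HT29 level in HCT116. Of the 221 genes, 109 had at least 50 RPKM in HT29, and the HCT116 libraries showed them at a median of 2.04% (RPL9 siRNA), 1.35% (RPL17) and 1.59% (RPL27) of the HT29 mean. Between 45 and 46 of the 109 stood under 1% in each HCT116 library. In the other direction DSC3 was the only gene that differed by 3 or more with at least 50 RPKM in HCT116. The control libraries, which the fit does not use, gave the same direction for 218 of the 221 genes and a difference of 3 or more for 139 of them. Of the 35 genes called 2 or more higher in HCT116, 27 were also higher in the NC pair and 14 by 2 or more. For calls of any size the share was lower, 1063 of 1617 higher and 1018 of 1684 lower genes. The share of all tested genes with either sign in the NC pair is not given beside these counts. They are therefore descriptions without a baseline. The paired differences of the 6 libraries had rank correlations with transcript length of -0.02, -0.04 and -0.06 over 12303 genes.

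Secretory genes had the largest difference. AGR2, a protein disulfide isomerase of mucus-producing cells, was read at 9.66, 0 and 0.13 RPKM in HCT116 under RPL9, RPL17 and RPL27 siRNA and at 2635, 3526 and 1835 RPKM in HT29. The groups were far apart under every siRNA, and the difference was -10.13 (SE 0.67; adjusted p = 4.8e-04, limma). TSPAN8, a tetraspanin of the epithelial surface, stood at 0 to 1.22 RPKM in HCT116 and 435 to 758 RPKM in HT29 (-8.65 with an SE of 0.32, adjusted p = 9.7e-05). LYZ encodes lysozyme, the antibacterial enzyme of Paneth cells and of macrophages, and was at 3.85 to 14.4 RPKM in HCT116 against 2302 to 3001 RPKM in HT29 (-8.44, SE 0.30). In the goblet and secretory cell list 22 of 32 members were tested, with a median difference of -2.25 against 0.04 over all genes. Of these 14 were lower in HCT116 (63.6%, against 11.8% of all genes) and 0 higher. BCAS1 (-6.98), SPINK1, a trypsin inhibitor (-6.55), KLK11 (-6.01) and SPDEF, a transcription factor that drives goblet cell maturation (-4.74), were among them, and so was MUC2, the main gel-forming mucin of the colon, at 1.28 to 3.69 RPKM in HCT116 and 34.3 to 88.7 RPKM in HT29 (-4.03, SE 0.39). SPINK1 was listed at 0 in all 3 HCT116 libraries, so its fitted value depends on the pseudocount.

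Absorptive genes followed. LGALS4, a galectin of the enterocyte apical membrane, stood at 11.98, 0.95 and 2.83 RPKM in HCT116 and at 1963, 1859 and 1963 RPKM in HT29 (-8.71 with an SE of 0.46, adjusted p = 2.6e-04, limma). VIL1 encodes villin, which bundles the actin of microvilli, and was at 2.89, 0 and 0.93 RPKM against 475, 463 and 373 RPKM (-7.80, SE 0.37). KRT20, the keratin of upper crypt and villus cells, was at 16.3, 2.32 and 2.56 RPKM against 1290, 1252 and 879 RPKM (-7.58, SE 0.42). For AGR2, LGALS4, VIL1 and KRT20 the HCT116 RPL9 library held the highest of the 3 low values, and the gap to HT29 remained large beside it. Of 30 listed enterocyte genes 18 were tested, with a median of -0.89. Of these 9 were lower (50%, against 11.8% of all genes), 0 higher and 9 not called. Without either RPL17 or either RPL27 siRNA library 6 were called lower, and with the NC pair added 5. CDX2 was not called (0.34 with an SE of 0.29, adjusted p = 0.44).

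**Figure D2:**
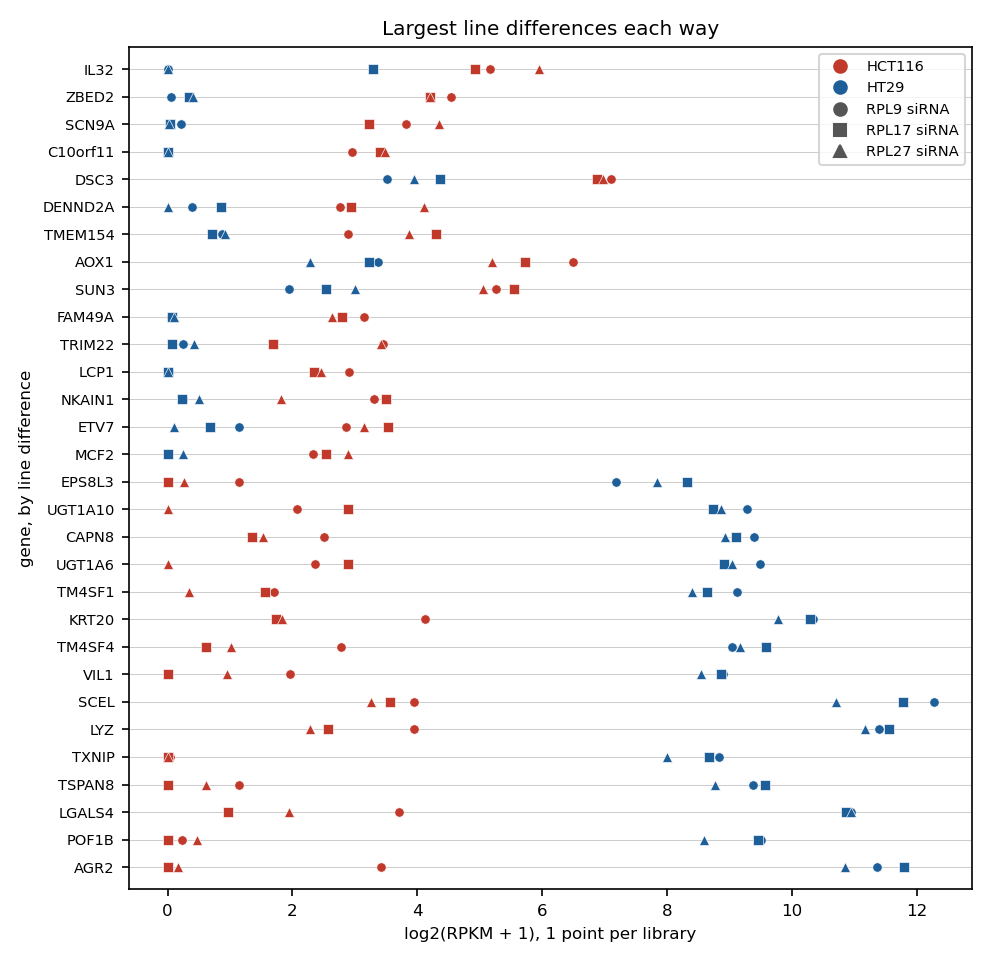
Level of the 15 genes with the largest called difference each way, as log2(RPKM + 1) on the horizontal axis, 1 symbol per library, with line by colour and siRNA by shape. In each of the lower 15 genes the HT29 points lie far to the right of the HCT116 points. HCT116 points of the upper 15 genes lie at lower levels than those HT29 points. DSC3 is the highest of them at 116 to 135 RPKM, close to EPS8L3 in the HT29 RPL9 library (143.7 RPKM).

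Several genes with other roles stood as far apart. TXNIP, which binds thioredoxin and limits glucose uptake, was at 0.03, 0 and 0 RPKM in HCT116 and at 455, 406 and 254 RPKM in HT29 (-8.48 with an SE of 0.25, adjusted p = 7.0e-05, limma). POF1B, a junction and cytoskeleton protein, was at 0 to 0.39 RPKM against 384 to 723 RPKM (-8.95, SE 0.30). SCEL encodes sciellin, a precursor of the cornified envelope, and was at 14.4, 10.8 and 8.53 RPKM against 4926, 3501 and 1667 RPKM (-7.99, SE 0.18). The transmembrane genes TM4SF4 (-7.79) and TM4SF1 (-7.51), the calpain CAPN8 (-7.34) and the actin regulator EPS8L3 (-7.30) completed the largest HT29-high genes, with every HT29 library at 143.7 RPKM or more and every HCT116 library at 5.89 RPKM or less in these 4.

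A group of genes was listed at exactly 0 in HCT116. In all 3 HCT116 libraries 23 genes with an HT29 mean of at least 5 RPKM were at 0, and 14 of them had at least 10 RPKM in each HT29 library. Of these 14, 13 were also at 0 in the HCT116 NC library. Picked out after their values were seen, they included NNT, the mitochondrial transhydrogenase that makes NADPH (112, 71.3 and 81.9 RPKM in HT29), ACSS1, a mitochondrial acetyl-CoA synthetase (49.7, 89.6 and 65.2 RPKM), TMPRSS2, a membrane serine protease (72.2, 73.7 and 45.4 RPKM), GSTT1, a glutathione transferase (28.1, 52.5 and 61.1 RPKM) and SELENBP1 (33.9, 41.6 and 39.6 RPKM). A listed 0 can also come from an assignment rule, so no fold is given. In the reverse direction 3 genes were at 0 in all HT29 libraries with an HCT116 mean of at least 5 RPKM, C10orf11, C22orf42 and MS4A13, and 0 of them reached 10 RPKM in every HCT116 library.

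Genes that metabolise drugs and steroids were more often lower than higher in HCT116. Of 55 tested members of that list 23 were lower (41.8%) and 5 higher (9.09%), against 11.8% and 11.4% over all genes. Their median was -0.37. The lower calls came to 14 with the NC pair added and 15 without the HT29 RPL17 library. ALDH1A1, a retinaldehyde dehydrogenase, was very even within each line, at 21.3, 21.7 and 16.8 RPKM in HCT116 and 1251, 1277 and 1267 RPKM in HT29 (-5.93 with an SE of 0.12, adjusted p = 5.0e-05, limma). Its relative ALDH1A3 ran the other way, at 2519, 1616 and 2763 RPKM in HCT116 against 912, 625 and 1191 RPKM in HT29 (1.35 with an SE of 0.07, adjusted p = 2.0e-04). Both genes encode enzymes of retinoic acid synthesis, and for each of them the lines did not overlap. AKR1B1, an aldose reductase, was also higher in HCT116 (0.84, SE 0.09), and so was the conjugate exporter ABCC2 (0.61, SE 0.08). In the NC pair AKR1B1 was 0.46 lower in HCT116, and ABCC2 was 1.26 higher.

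Part of these genes are chromosomal neighbours. Runs of at least 3 tested neighbours, all called in the same direction with a difference of at least 2, were found 5 times, each lower in HCT116. The longest is the UGT1A locus on chromosome 2, which encodes the glucuronidating enzymes, where 10 symbols from UGT1A8 to UGT1A1 were called. UGT1A1, the bilirubin-conjugating member, was listed at 3.22, 6.68 and 0 RPKM in HCT116 and at 594, 405 and 447 RPKM in HT29 (-7.22, SE 0.54). The other UGT1A symbols carried nearly the same values, since the isoforms share their last exons, so the locus counts as 1 measurement and single isoforms are uncertain. UGT1A6 (-7.39) and UGT1A10 (-7.31) had the largest differences in it. On chromosome 10 lay AKR1C1 (-4.46), AKR1C2 (-3.79) and AKR1C3 (-4.61), steroid ketoreductases of near-identical sequence, and on chromosome 7 CYP3A5 (-4.50), CYP3A7 (-3.47) and a read-through of the latter (-3.75), which share sequence too. AKR1C3 was at 8.87, 15.5 and 17.8 RPKM against 230, 388 and 497 RPKM, lowest under RPL9 siRNA and highest under RPL27 siRNA in both lines.

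The remaining 2 runs hold genes of unlike function. On chromosome 12 PTPRR, a tyrosine phosphatase (-2.36), TSPAN8 and LGR5, the receptor that marks crypt stem cells (-4.01), were lower together. LGR5 was at 0.15, 1.37 and 1.92 RPKM in HCT116 and 23.2, 39.8 and 33.1 RPKM in HT29. On chromosome 2 CD302 (-3.31), LY75 (-5.39), their read-through (-5.65), the phospholipase A2 receptor PLA2R1 (-3.18) and ITGB6 (-6.59) were lower. ITGB6, the beta subunit of an epithelial integrin that activates latent TGF-beta, stood at 0, 1.73 and 0.96 RPKM in HCT116 against 209, 172 and 131 RPKM in HT29. Reads of CD302 and LY75 cannot be parted from those of their read-through.

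Promoters of 5 of the HT29-high genes are shown because they hold 1 of several strings that were more common upstream of such genes than elsewhere. RefSeq promoters (GRCh38.p14, the 250 bases before the start of the gene) were matched for 11482 of 14208 tested genes, which gave 11406 distinct windows. The string is GTTAAT, and it is printed in capitals, as ATTAAC where it lies on the opposite strand. The windows are chr17:40885243-40885492 on the minus strand for KRT20, chr3:149474447-149474696 on the plus strand for TM4SF4, chr2:160200273-160200522 on the minus strand for ITGB6, and chr2:233760020-233760269 and chr2:233728792-233729041 on the plus strand for UGT1A1 and UGT1A3.
KRT20: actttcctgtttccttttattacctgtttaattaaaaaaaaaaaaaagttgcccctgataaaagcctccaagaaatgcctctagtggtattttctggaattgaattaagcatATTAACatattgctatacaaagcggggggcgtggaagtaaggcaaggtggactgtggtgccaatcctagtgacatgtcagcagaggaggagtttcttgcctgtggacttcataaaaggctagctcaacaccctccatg
TM4SF4: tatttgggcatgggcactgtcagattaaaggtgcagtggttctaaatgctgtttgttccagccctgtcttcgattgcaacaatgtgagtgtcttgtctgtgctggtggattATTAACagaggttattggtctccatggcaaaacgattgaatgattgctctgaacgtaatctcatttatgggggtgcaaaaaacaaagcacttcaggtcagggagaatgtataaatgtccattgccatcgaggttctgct
ITGB6: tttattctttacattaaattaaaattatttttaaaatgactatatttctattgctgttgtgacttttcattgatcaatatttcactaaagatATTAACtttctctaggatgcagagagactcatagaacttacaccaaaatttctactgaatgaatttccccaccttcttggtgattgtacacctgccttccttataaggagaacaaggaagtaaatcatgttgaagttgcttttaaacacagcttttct
UGT1A1: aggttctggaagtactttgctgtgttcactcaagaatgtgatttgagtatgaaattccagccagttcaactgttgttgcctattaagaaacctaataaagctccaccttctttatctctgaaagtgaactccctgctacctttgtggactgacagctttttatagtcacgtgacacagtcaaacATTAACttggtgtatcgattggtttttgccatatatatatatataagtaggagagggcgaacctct
UGT1A3: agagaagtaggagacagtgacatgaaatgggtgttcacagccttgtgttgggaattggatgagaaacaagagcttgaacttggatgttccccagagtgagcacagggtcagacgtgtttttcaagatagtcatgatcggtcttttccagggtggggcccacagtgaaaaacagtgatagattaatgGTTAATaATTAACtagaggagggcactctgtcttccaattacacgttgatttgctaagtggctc
The capitals begin 138 bases before the start in KRT20, 139 in TM4SF4, 158 in ITGB6, 66 in UGT1A1, and 64 and 57 in UGT1A3, where the copies face each other across 1 base. GTTAAT was found on either strand in 3.40% of all 11406 windows. It stood in 7.16% of the 531 windows of genes at least 1 lower in HCT116. The share was 12.5% of the 176 windows at least 3 lower and 20.8% of the 53 at least 5 lower. It stood in 1.82% of the 165 windows of genes at least 1 higher (3 windows). At 2 or more higher it stood in 3.23% of 31 (1 window), close to the share of all windows. Promoters of HT29-high genes were also poor in CpG: a window held a median of 20 CpG over all genes, 6 for genes at least 3 lower and 4 for genes at least 5 lower, and 60.2% of the windows at least 3 lower had 10 CpG or fewer, against 21.1% of all. The 31 windows of genes at least 2 higher in HCT116 had a median of 6 CpG as well. Among windows with up to 10 CpG the string stood in 8.19% of all and 18.9% of those at least 3 lower. The UGT1A windows belong to 1 locus that counts as 1 measurement. Without them, a choice made after the values were seen, the string stood in 11.3% of 168 windows at least 3 lower, in 17.8% of 45 at least 5 lower and in 3.38% of all. Among windows with up to 10 CpG it then stood in 8.09% of all and 17.3% of those at least 3 lower. It was picked after the shares of 21 strings had been seen, all counted on both strands and several of them overlapping. Beside GTTAAT and its longer forms, in which any base and then ATT or ATTAA follow it, these were TTTATNG, its forms TTTATGG and TTTATTG and the shorter TTTATG for CDX factors, CAAAGTNCA and its form CAAAGTCCA for HNF4, TGTTTAC with the variant TGTTTGC for forkhead factors, the TATA box TATAAA, the AP-1 site TGACTCA and its looser form TGANTCA, the E-box CACGTG, the TEAD site GGAATG, the TCF site CTTTGAT, the GC box GGGCGG, the GATA site GATAAG, the KLF site CCCCACCC, and last AACATG. Relative to all windows some strings rose more than GTTAAT, on few windows. CAAAGTNCA stood in 2.84% of windows at least 3 lower (5 windows) against 0.622% of all. For CAAAGTCCA the shares were 1.7% (3 windows) and 0.254%. Others fell, such as GGGCGG with 40.3% against 65.2%. A match describes letters only. Of the genes of HNF4 factors, which act in liver and gut, HNF4G was at 17.6 to 21.5 against 52.0 to 86.4 RPKM (-1.81, SE 0.23), and HNF4A at 9.36 to 14.7 against 23.9 to 33.8 RPKM (-1.36, SE 0.28). No binding was measured here.

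Adhesion genes were more often lower than higher in HCT116. Of 18 tested integrins 8 were lower in HCT116 (44.4%) and 2 higher (11.1%), against 11.8% and 11.4% over all genes. Their median of -0.35 became 0.11 with the NC pair added. ITGA1, a collagen receptor chain, was at 13.9 to 35.1 RPKM in HCT116 and 221 to 420 RPKM in HT29 (-3.70, SE 0.14), while ITGA5, the fibronectin receptor chain, was at 729 to 904 RPKM against 405 to 587 RPKM (0.68, SE 0.16) and lost the call without either RPL27 siRNA library (adjusted p = 0.065 and 0.062). Among 20 claudins, cadherins and junction genes 10 were lower (50%) and 1 higher (5%), with a median of -0.38. With the NC pair added 3 were lower. CDH1, which encodes E-cadherin, was at 337 to 351 RPKM in HCT116 against 899 to 1180 RPKM in HT29 (-1.62, SE 0.09). In the NC pair CDH1 was 0.67 higher in HCT116, and with that pair added its call was lost (-1.04, adjusted p = 0.26). CDH3, or P-cadherin, was the member higher in HCT116 (0.49, SE 0.07). Fewer junction genes were called lower with 5 libraries, 4 without either RPL17 siRNA library, 5 without either RPL27 and 6 without either RPL9.

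Keratins moved both ways. Beside KRT20, the simple epithelial keratins KRT18 (-0.98, SE 0.04) and KRT8 (-0.70, SE 0.03) were lower in HCT116, and KRT80 and KRT17 more so (-2.37 and -2.58). KRT7 was higher in HCT116, at 313, 278 and 139 RPKM against 143, 107 and 51.1 RPKM (1.31, SE 0.11), and so was KRT15 (1.06, SE 0.11). In the NC pair KRT7 was 0.10 higher in HCT116 and KRT15 0.34 lower. RPL27 siRNA gave the lowest KRT7 and the highest KRT15 in both lines. In all 8 of 19 tested keratins were lower (42.1%) and 4 higher (21.1%), against 11.8% and 11.4% over all genes. Without either RPL17 or either RPL27 siRNA library 5 were lower.

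Members of the list of mesenchymal-like genes were more often higher than lower in HCT116. Of 34 tested members 12 were higher (35.3%) and 5 lower (14.7%), against 11.4% and 11.8% over all genes. The other 17 were not called, and the list median was 0.32. Those not called included VIM (-0.57), CDH2 (-0.14), ZEB1 (0.21), SNAI1 (0.95) and SNAI2 (1.26), so no mesenchymal state is assigned to either line. DKK1, a secreted Wnt inhibitor, was at 575 to 764 against 251 to 371 RPKM (1.08, SE 0.08). The exception in size was TGFBI, a matrix protein induced by TGF-beta, at 1.95 to 3.45 RPKM in HCT116 and 183 to 534 RPKM in HT29 (-6.55, SE 0.27). The TGF-beta receptor gene TGFBR2, known to be inactivated in mismatch repair deficient tumours, was lower as well (-1.05, SE 0.13). In the NC pair TGFBR2 was 0.68 higher in HCT116. With the NC pair added 3 members of the list were higher and 2 lower, and without the HCT116 or the HT29 RPL17 library 8 were higher.

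Genes with the largest differences towards HCT116 were of modest level. DSC3, a desmosomal cadherin, was at 135, 116 and 124 RPKM in HCT116 and at 10.4, 19.6 and 14.5 RPKM in HT29 (3.03 with an SE of 0.24, adjusted p = 8.3e-04, limma). ZBED2, a transcription factor gene, was at 22.4, 17.3 and 17.4 RPKM against 0.03 to 0.33 RPKM (4.05, SE 0.32), and SCN9A, a voltage-gated sodium channel, at 13.1, 8.33 and 19.3 RPKM against 0.02 to 0.17 RPKM (3.70, SE 0.36). IL32, a cytokine gene, had the largest value (4.25, SE 0.80), with 34.6, 29.4 and 60.8 RPKM in HCT116 against 0, 8.81 and 0 RPKM in HT29. It lost the call without the HCT116 RPL9 (adjusted p = 0.058), HCT116 RPL27 (0.051) or HT29 RPL9 library (0.051). AOX1, an aldehyde oxidase, was at 89.3, 51.7 and 35.4 RPKM against 9.32, 8.35 and 3.84 RPKM (2.85, SE 0.22), lower under RPL27 than under RPL9 siRNA in both lines. In the NC pair DSC3 was 4.34 higher in HCT116, SCN9A 4.33, ZBED2 2.02, AOX1 0.61 and IL32 only 0.42. Each of DENND2A (2.86), ETV7 (2.53) and MCF2 (2.51) was lower in HCT116 in the NC pair.

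Signalling and repair genes gave mixed results. The Wnt list had 8 higher (32%) and 7 lower (28%) of 25, against 11.4% and 11.8% over all genes. BMP4 was lower in HCT116 at 90.5 to 112 against 282 to 292 RPKM (-1.56, SE 0.11). The EGFR and MAPK list had 6 higher (24%) and 8 lower (32%) of 25. The receptor ERBB3 was lower (-1.44, SE 0.12), though 0.14 higher in the NC pair. The ligand EREG, or epiregulin, was higher at 624 to 1096 RPKM against 422 to 623 RPKM (0.72, SE 0.08), and so was the AP-1 member FOSL1 (1.00, SE 0.13). In the TGF-beta and BMP list 2 were higher (7.41%) and 6 lower (22.2%) of 27, the lower ones with the inhibitory SMAD6 (-2.66, SE 0.24). Without 1 library the higher Wnt genes came to 4 or 5, and without either RPL17 siRNA library the EGFR and MAPK calls came to 2 higher and 2 lower. The mismatch repair gene MSH3, known to carry a mutation in HCT116, was lower there at 37.0 to 47.5 against 110 to 141 RPKM (-1.48, SE 0.18).

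Immune genes were called in both directions. Over all genes 11.4% were higher and 11.8% lower. Of 37 tested interferon-stimulated genes 11 were lower (29.7%) and 4 higher (10.8%), with a median of -0.26. BST2, which tethers virions, was at 1.72 to 4.55 RPKM in HCT116 and 60.7 to 74.2 RPKM in HT29 (-4.22, SE 0.31). GBP2 (-3.46) and OAS1 (-3.32) were lower too. TRIM22 ran against these (2.61, SE 0.44) and lost its call without the HCT116 RPL27 library (adjusted p = 0.054). In the NC pair the lines were nearly even in TRIM22 (0.004). In antigen presentation 6 were lower (21.4%) and 4 higher (14.3%) of 28, not far from the shares over all genes. The immunoproteasome subunit PSMB8 (-3.69) and the peptide trimmer ERAP2 (-3.22) were lower, and HLA-B was higher (0.64, SE 0.09). In the NC pair HLA-B was 0.69 lower in HCT116. The higher calls came to 1 without either RPL17 or either RPL27 siRNA library. Fewer interferon genes were called lower without either RPL9 or either RPL17 siRNA library, 5 in each case. The chemokine and cytokine list had 3 higher (13.6%) and 5 lower (22.7%) of 22, with IL32 (4.25) the largest of the higher ones. CXCL16 was at 181 to 215 against 88.3 to 92.2 RPKM (1.08, SE 0.11). CCL15 was at 0 to 0.06 against 17.6 to 22.8 RPKM (-4.37, SE 0.30). Among HOX genes 9 of 28 were lower (32.1%) and 0 higher, with a median of -0.54. The lower ones ran from HOXB6 at 114 to 128 against 173 to 175 RPKM (-0.54, SE 0.11) to HOXC4 at 1.86 to 2.79 against 8.15 to 14.0 RPKM (-1.70, SE 0.30). With 5 libraries between 2 and 5 were called. In the CEA family 3 of 5 were lower (60%), CEACAM5 most (-3.75, SE 0.50). Cancer-testis antigens had 5 of 8 tested higher (62.5%), MAGEB2 at 168 to 182 against 90.9 to 100.2 RPKM (0.85, SE 0.11). Of these 2 were called without either RPL17 siRNA library, 3 without either RPL27 and 0 with the NC pair added. The lower chemokine calls came to 3 without either RPL9 or either RPL17 siRNA library.

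**Figure D3:**
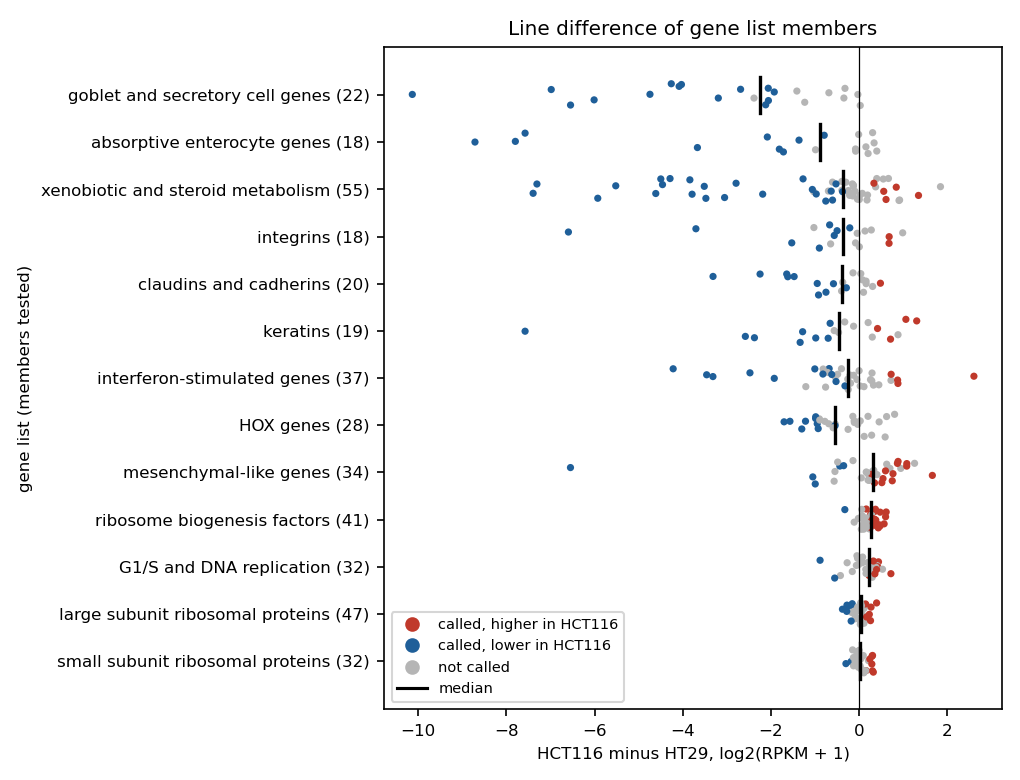
Line difference (HCT116 minus HT29, log2(RPKM + 1)) of each tested member of 13 gene lists, 1 point per gene, with points called higher in red, lower in blue and not called in grey, and the list median as a black bar. Goblet and enterocyte genes spread far to the left, to -10.13 and -8.71, while ribosome biogenesis factors lie just right of 0, with a median of 0.27.

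Ribosome biogenesis factors had 22 of 41 higher in HCT116 (53.7%) and 1 lower (2.44%), with a median of 0.27. Over all genes the shares were 11.4% and 11.8%. PES1 and BOP1, partners in the PeBoW complex that matures the large subunit, were at 2099 to 2422 against 1379 to 1544 RPKM (0.60, SE 0.05) and at 1374 to 1714 against 913 to 1174 RPKM (0.57, SE 0.06). In the NC pair both were lower in HCT116 (-0.16 and -0.45). RRP1B had the largest value (0.62, SE 0.09), and DKC1, the pseudouridine synthase of box H/ACA particles, was lower (-0.32, SE 0.05). The 22 calls came to 8 without either RPL17 siRNA library, 14 without HCT116 RPL27, 7 with no term for the siRNA and 0 with the NC pair added. Ribosomal protein genes themselves were close to even. In the large subunit 7 were higher and 7 lower of 47 (14.9% each way, near the shares over all genes, median 0.04). In the small subunit 7 were higher (21.9%) and 2 lower (6.25%) of 32 (median 0.02). Those medians were -0.03 in both lists after quantile normalization and -0.24 and -0.27 with the NC pair added, so no direction is given for either family. The higher calls came to 11 or 12 in the large subunit and 11 in the small subunit without either RPL9 siRNA library, to 3 and 3 without either RPL17, and to 3 and 4 without either RPL27. Reads of ribosomal protein genes can be shared with processed pseudogenes. Of 7 tested paralogs 4 were higher (57.1%), among them RPL26L1 at 296 to 363 against 189 to 234 RPKM (0.68, SE 0.11). In the NC pair RPL26L1 was 0.67 lower in HCT116. Of the paralogs 0 were called with the NC pair added and 2 without the HCT116 RPL17 library.

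Proliferation and metabolism differed at single genes. In the list of G1/S genes 9 of 32 were higher (28.1%) and 2 lower (6.25%), with a median of 0.23. POLE2, a subunit of the replicative polymerase epsilon, was at 301 to 354 against 162 to 224 RPKM (0.72, SE 0.10). Only 1 to 5 genes of the list were called higher without an RPL17 or RPL27 siRNA library. The G2/M list had 2 higher (6.67%) and 4 lower (13.3%) of 30, close to the 11.4% and 11.8% over all genes. CDC20 was higher (0.57, SE 0.08) and TOP2A lower at 1456 to 2350 against 2425 to 3207 RPKM (-0.63, SE 0.07). Both had the other sign in the NC pair (-0.27 for CDC20 and 0.90 for TOP2A). The lower calls of the list came to 1 or 2 with 5 libraries. Hypoxia and glycolysis genes had 10 higher (31.2%) and 4 lower (12.5%) of 32. CA9, a carbonic anhydrase driven by hypoxia, was at 0.11 to 2.13 RPKM in HCT116 and 56.5 to 98.6 RPKM in HT29 (-5.11, SE 0.46), the glucose transporter SLC2A1 was lower (-0.94, SE 0.06), and the mitophagy receptor BNIP3 was higher (0.74, SE 0.11). Of the hypoxia calls 3 to 4 were higher without an RPL17 siRNA library and 6 without HCT116 RPL27. Genes of serine and amino acid supply had 6 higher (18.8%) and 5 lower (15.6%) of 32, not far from the shares over all genes. The cystine carrier SLC7A11 was at 103 to 282 against 221 to 425 RPKM (-0.85, SE 0.12), a sign that turned to 0.23 with the NC pair added. The higher calls of the list came to 1 without either RPL17 siRNA library and 3 without either RPL27. Cholesterol genes had 2 and 2 of 24 (8.33% each way, under the shares over all genes), with SQLE, squalene epoxidase, lower at 361 to 403 against 608 to 741 RPKM (-0.82, SE 0.07), and leaving out any of the 6 libraries, 0 were higher and 1 lower.

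The size of a line difference varied with the siRNA for some genes. The widest ranges over the 3 pairs, among called genes that averaged 10 RPKM or more, were those of ABO, IL32, SDCBP2, AGR2 and KYNU. ABO, which encodes the blood group transferase, was at 0.64, 2.01 and 0.81 RPKM in HCT116 and at 56.8, 4.08 and 19.0 RPKM in HT29, so its pair differences spanned 4.38. SDCBP2, a syntenin gene, was at 5.36, 0 and 20.4 RPKM against 180.5, 61.7 and 79.5 RPKM, a span of 4.06. KYNU, kynureninase, was at 3.71, 0.78 and 12.2 RPKM against 35.3, 45.1 and 29.1 RPKM, a span of 3.50. Each span rests on 1 library per line and siRNA and has no test. ABO lost its call without either RPL9 or either RPL27 siRNA library (adjusted p from 0.091 to 0.108), and KYNU without either RPL9 or either RPL17 library (0.052 to 0.064).

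Chromosomes differed in their median. Chromosome 20 had the lowest, -0.17, with 104 of 368 tested genes lower in HCT116 (28.3%) and 27 higher (7.34%), and chromosome 13 followed at -0.16 with 61 of 229 lower (26.6%) and 16 higher (6.99%), against 11.8% and 11.4% over all genes. Chromosome 15 was at -0.09. The highest medians were 0.16 on chromosomes 14, 21 and 22, and 0.15 on chromosome 18, where 41 of 186 genes were higher (22.0%) and 19 lower (10.2%). Each of the 3 siRNA pairs gave chromosomes 20 and 13 a negative median, from -0.22 to -0.14, and chromosomes 14, 18, 21 and 22 a positive one, from 0.07 to 0.19. DNA copy number was not measured here. No test was made of the chromosome medians.

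**Figure D4:**
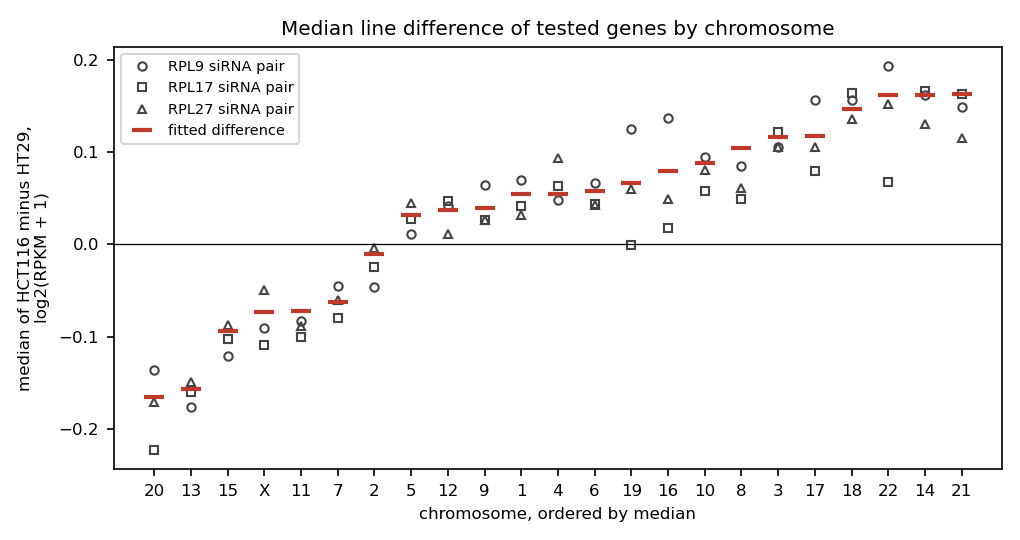
Median line difference of the tested genes of each chromosome (vertical axis, log2(RPKM + 1)), with chromosomes ordered by the median of the fitted difference (red bar) and the medians within each siRNA pair as open symbols. Chromosomes 20 and 13 lie lowest, at -0.17 and -0.16, and chromosomes 14, 21 and 22 highest, at 0.16.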

How the data were processed

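Total RNA of 6 libraries, 3 per line, was made into sequencing libraries with an Illumina TruSeq RNA kit, per the labels, and each library gives 1 RPKM per gene symbol. The submitters' processing notes name CASAVA 1.8.2 and TopHat2 2.0.9 as tools and hg19 as the build. The RPKM values were deposited by the authors. How reads were assigned to genes is not stated among these notes and labels. The values behave like sums over exons, so levels were compared between libraries and not between genes.

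Values were taken as log2(RPKM + 1), which understates changes of low genes, with a filter at a mean of 1 RPKM. The model, with line and siRNA as terms, was run in limma 3.58.1 with its trend option (R 4.3.3). It has 2 residual degrees of freedom per gene, and the trend over all genes adds 4.07 prior degrees of freedom. Tests are two-sided with Benjamini-Hochberg adjustment over 14217 genes at 0.05, and the procedure was tested on simulated data. The replicates of a line are different siRNAs, and nothing in the labels says that they are separate cultures. The pairs share the siRNA: deviations from the line means correlated at 0.320 (RPL9), 0.289 (RPL17) and 0.360 (RPL27) for the same siRNA, and at -0.223 to -0.086 for different ones.

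Named genes were the 15 with the largest called difference each way, up to 3 called members each way of each of 32 gene lists, the siRNA targets, the 5 widest ranges over siRNAs and the members of neighbour runs. Not all are given in the text. Members and lists were chosen with earlier results of these data known, so list counts and medians are descriptions. Some lists share genes, and a few genes and 1 of the lists are not reported here. Lists of neuroendocrine, endothelial and fibroblast markers had 0 calls, and leukocyte markers 1 (LYZ). Chromosomes and neighbours come from a RefSeq table of another build, so only order and chromosome are used. The 17 alternatives covered the pseudocount, filter, scaling, variance model, siRNA term, each library, the NC pair and transcript length.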

Additional observations from a re-analysis of the deposited data

How the results depend on the processing

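All 17 alternatives were run. Leaving out a library also takes its siRNA partner out of the line difference, which then rests on the other pairs. Leaving out each library in turn gave 490 to 1092 genes higher and 887 to 1272 lower in HCT116; at a difference of at least 1, 132 to 170 higher and 527 to 622 lower; at 3 or more, 7 to 11 higher and 220 to 225 lower; at 5 or more, 0 to 1 higher and 64 to 72 lower. Without the siRNA term (no replicate block, 3 libraries against 3) 545 genes were called higher and 998 lower, and 117 were at least 1 higher. Without the filter on low values 894 were higher, and 127 at least 1 higher. limma without trend called 295 higher and 725 lower, with 118 at least 1 higher. A pseudocount of 5 left 113 at least 1 higher, 0 and 104 at 3 or more higher and lower, and 31 at 5 or more lower, while a pseudocount of 0.1 gave 38 at 3 or more higher, and 8 and 169 at 5 or more higher and lower. With the NC pair added 103 were called higher and 415 lower, 74 and 380 at 1 or more, and 3 at 3 or more higher, and 518 genes were called the same way as without it. That alternative turned the sign of MIF (-0.12), RPL36 (-0.018), RPL38 (-0.056), RPS28 (-0.12), RPS15 (-0.054), SLC7A11 (0.23), RPL9 (-0.19) and RPL17 (-0.10). It brings in the HT29 NC library, whose median of 26.3 RPKM was below that of every other library. The cause of the turned signs was not tested. No other sign turned among the 170 named genes, of which 167 were called, 70 of them the same way in every alternative, and 47 lost the call without at least 1 library. Read depth was not analysed here, so no counting interval can be set on values near 0.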
